A study of Mus musculus with 24 samples.

Results

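The genes described here are 32 interferon-stimulated genes, given as a list of symbols and read by symbol from a count table of 24421 genes. All 32 were in the table and all 32 passed the expression filter that left 12850 genes for testing. RNA was sequenced from bone marrow B cells of 8 mice, which gave 24 libraries. All 8 carried Mb1-Cre, a recombinase driven from a B lineage gene, on 1 allele (MB1 Cre +/WT), so the controls carried it too. In 4 mice both Vhl alleles were floxed (flox/flox), and in 4 mice 1 was floxed and 1 wild type (flox/WT). Each mouse gave 3 sorted populations, labelled proBpreB, immature and mature, with 1 library per mouse and population, that is 4 mice in each of 6 groups. The labels give neither gate markers nor age or sex. Vhl encodes the part of a ubiquitin ligase that marks hypoxia-inducible factors for destruction.

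Type I interferons bind the receptor Ifnar1 and Ifnar2, and the kinases Jak1 and Tyk2 then activate Stat2. With Irf9 it takes part in the complex ISGF3, which binds interferon-stimulated response elements before the start of its target genes. The targets include sensors of viral nucleic acid, enzymes and membrane proteins that block viral growth, and factors such as Irf7 and Usp18 that raise or damp the response. Many are also transcribed at a low level in unstimulated lymphocytes.

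The core of the response element, GAAA followed by any 2 bases and GAAA again, was searched on both strands in windows that run from 250 bases before to 50 bases after a transcription start (RefSeq, GRCm38.p6). Such windows were matched for 22 of the 32 genes, 24 windows in all, and 11 of the 24 held the element, against 3.44% of all 32851 windows. The 8 genes whose matches lie wholly before the start are shown so that the element can be seen in its place. The other 11 genes with a window held no match in it. Capitals mark the element as read on the gene's strand, so that a pair of TTTC blocks is the same element on the other strand, and letters of neighbouring matches overlap in Isg15, Oas1a and Bst2. The stretches are Ifit1 chr19:34640755-34640843 (+), Ifit3 chr19:34583343-34583446 (+), Isg15 chr4:156200845-156200926 (-), Stat2 chr10:128270248-128270315 (+), Oas1a chr5:120907526-120907575 (-), Oas3 chr5:120777695-120777764 (-), Rsad2 chr12:26456533-26456602 (-) and Bst2 chr8:71537557-71537632 (-).
Ifit1: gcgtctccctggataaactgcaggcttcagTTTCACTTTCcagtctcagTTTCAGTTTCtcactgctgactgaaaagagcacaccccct
Ifit3: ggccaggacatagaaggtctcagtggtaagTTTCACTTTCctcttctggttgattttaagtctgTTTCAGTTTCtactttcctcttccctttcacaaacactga
Isg15: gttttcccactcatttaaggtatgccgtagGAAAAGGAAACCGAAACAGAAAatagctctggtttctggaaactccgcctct
Stat2: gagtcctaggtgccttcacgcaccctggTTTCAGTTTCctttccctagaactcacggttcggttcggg
Oas1a: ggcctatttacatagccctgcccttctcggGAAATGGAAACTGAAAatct
Oas3: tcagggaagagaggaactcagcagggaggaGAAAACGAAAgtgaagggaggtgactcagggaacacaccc
Rsad2: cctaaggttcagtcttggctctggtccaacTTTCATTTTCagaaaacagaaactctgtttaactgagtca
Bst2: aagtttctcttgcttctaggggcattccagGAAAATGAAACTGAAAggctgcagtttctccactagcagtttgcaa
Isg15 held 3 matches, Ifit1, Ifit3, Oas1a and Bst2 held 2, and Stat2, Oas3 and Rsad2 held 1. In Ddx58, Ifih1 and Eif2ak2 the only match lay after the start. Of the 8 genes shown, Bst2 passed the test between genotypes as lower in flox/flox immature and mature cells and Stat2 in mature cells alone. The other 6 passed the test in no population. Whether the 8 differed from each other in their response to genotype was not tested. Of 2 shorter patterns that hypoxia-inducible factors are known to bind, ACGTG was in 2 of the 24 windows (19.6% of all windows) and GCGTG in 8 (32.4%), on either strand. Overlaps between different patterns were not counted. A match is a description of letters and not a site shown to be bound.

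Vhl itself, on chromosome 6, was lower in flox/flox libraries of every population: 10.2 against 25.3 CPM (counts scaled to library size with TMM factors) for proBpreB, 5.58 against 35.5 CPM for immature and 7.60 against 29.1 CPM for mature cells. Each difference had a two-sided exact permutation p = 0.0286, the smallest that 4 against 4 libraries allow. Library totals ran from 7850186 to 11863949 counts, and 3 counts corresponded to 0.231 to 0.419 CPM. The pro-B and pre-B marker list summed to 2123 to 3377 CPM in proBpreB libraries and to at most 231 CPM in the others. The list of mature B markers reached 16260 to 25076 CPM in mature libraries and at most 1928 CPM in proBpreB libraries. Both lists thus separated the libraries by their sort labels.

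Levels differed widely among the members. Per kilobase of exon, Ly6e and Ifi27l2a ranked first or second in all 6 groups. Ly6e, a membrane-anchored protein that limits viral entry, averaged 324 CPM per kb in flox/WT proBpreB cells and 1127 CPM per kb in flox/WT mature cells. Ifi27l2a, a small mitochondrial protein, averaged 892 CPM per kb in flox/WT immature cells. At the other end, Ifi44 averaged 0.207 CPM per kb in flox/WT immature cells, Mx2 0.197 CPM per kb in flox/flox mature cells and Ifih1, the RNA sensor MDA5, under 1 CPM per kb in every group. Since Ly6e weighs heavily in any sum over the list, counts and medians over genes are used here instead.

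The genotype comparison set flox/flox against flox/WT mice within each population. In proBpreB cells the members were centred on no change. In immature cells 11 of 32 were lower in flox/flox mice, beside 10.5% of all genes, and in mature cells 10 of 32, beside 6.62%. Ifi27l2a and Ifi35 were lower in all 3 populations, and Zbp1, Oasl1, Bst2 and Dhx58 were lower in both later ones. Samd9l and Ifi44 went the other way in both later populations.

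In proBpreB cells 2 of 32 members were lower and 0 were higher (edgeR quasi-likelihood, Benjamini-Hochberg adjusted p under 0.05, the threshold used throughout), where 6.13% of all genes tested were called, 2.75% lower and 3.38% higher. The median log2 change over the members was 0.017, with 16 of 32 below 0, beside -0.002 over all genes. In immature cells 11 members were lower and 2 higher, 13 of 32 beside 20.7% of all genes, and 10.5% of all genes were called lower and 10.2% higher. There the median was -0.41, with 27 of 32 below 0, while 6369 of 12850 genes were below 0 and the median over all genes was 0.003. In mature cells 10 were lower and 2 higher, 12 of 32 beside 16.3% of all genes, with 6.62% called lower and 9.69% higher. The median was -0.38, with 28 of 32 below 0, and 0.007 over all genes. In total 15 members were lower in at least 1 population, beside 16.9% of all genes, 2 were higher, beside 16.1%, and 15 passed in none. The last 15 were Ifit1, Ifit3, Isg15, Irf7, Mx1, Oas1a, Oas2, Oas3, Oasl2, Rsad2, Usp18, Ddx58, Ifih1, Trim25 and Rtp4. The libraries of the 2 genotypes did not overlap for 1 member in proBpreB cells (lower in flox/flox mice), where 15.4% of all genes did not overlap. In immature cells they were apart for 7 lower and 2 higher members, beside 22.9% of all genes, and in mature cells for 10 lower and 1 higher, beside 16.3%.

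The count of called members moved with single mice. The share of all genes called in these fits is not set beside the counts. Whether the moves were particular to the members was therefore not tested. Leaving out all 3 libraries of flox/WT mouse 4 left 7 calls in immature and 7 in mature cells, leaving out flox/flox mouse 1 left 6 and 6, and leaving out flox/flox mouse 4 left 8 in immature cells. In proBpreB cells 1 call was left without flox/WT mouse 4, flox/flox mouse 3 or flox/flox mouse 4, and without flox/WT mouse 4 that 1 call was a higher one. In these bulk libraries fewer cells of a type and less RNA per cell cannot be told apart.

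**Figure D1:**
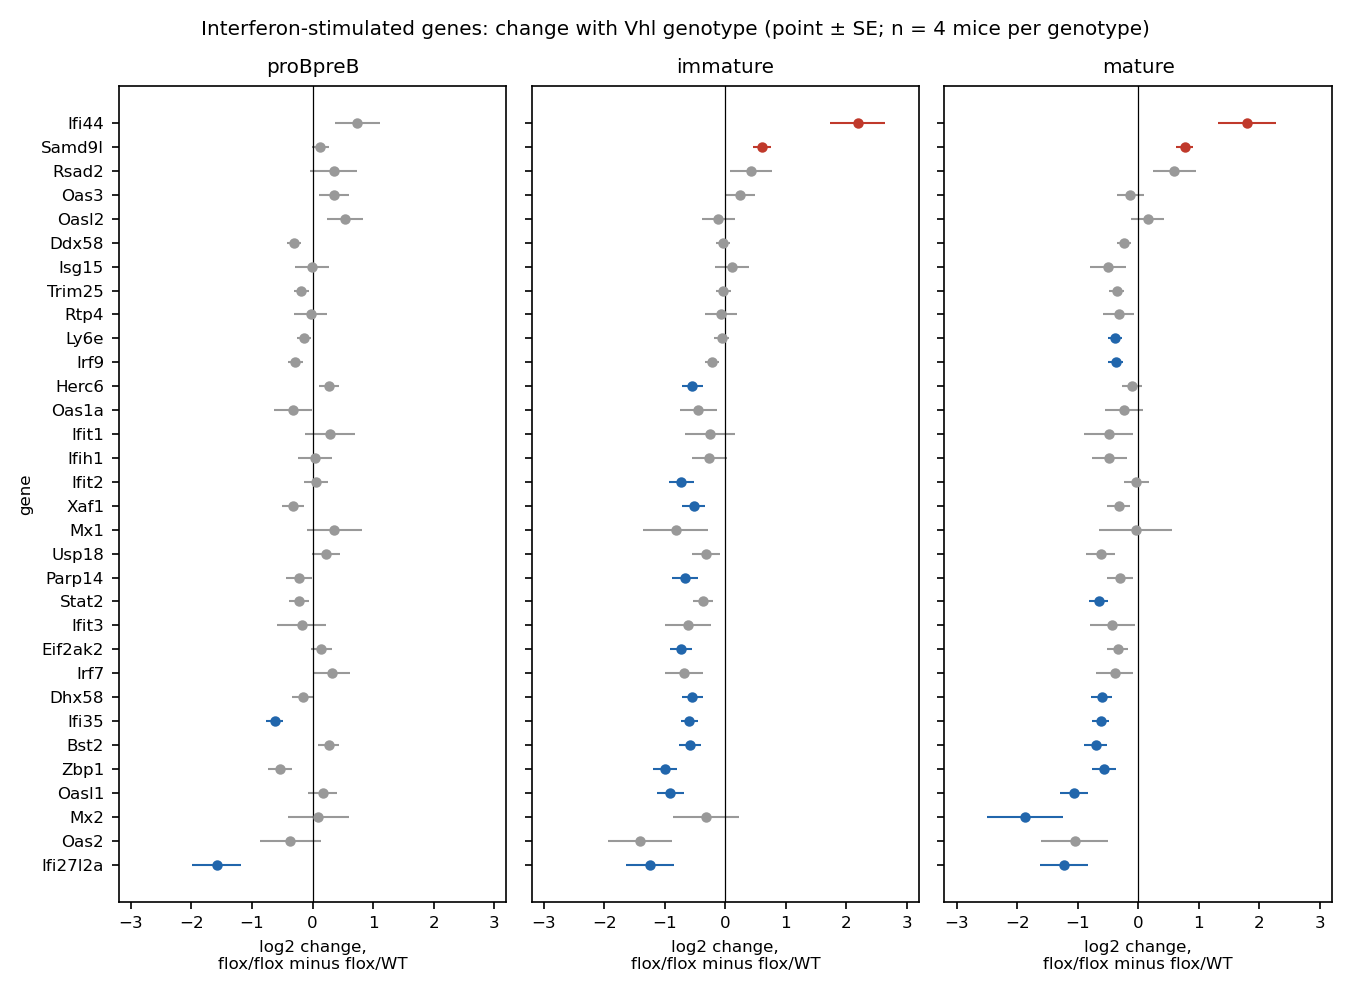
Log2 change between genotypes (x axis, flox/flox minus flox/WT) for the 32 members (y axis) in each population, with bars for the SE and n = 4 mice per genotype. Blue points passed the test as lower, red as higher and grey did not pass, and 11 points are blue in immature cells and 10 in mature cells beside 2 in proBpreB cells.

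Of the transcription factors of the response, Stat2 and Irf9 were lower in mature flox/flox cells. Stat2 measured 121, 107, 175 and 175 CPM in the flox/WT mature libraries (replicates 1 to 4) and 89.5, 96.1, 76.5 and 106 CPM in the flox/flox ones. The highest flox/flox library lay just under the lowest flox/WT library, and 2 flox/WT libraries stood well above the rest. The log2 change was -0.65 (SE 0.16, edgeR adjusted p = 0.00501). Irf9, the DNA-binding partner of Stat2, was 162, 151, 153 and 176 CPM in flox/WT mature libraries and 115, 130, 135 and 114 CPM in flox/flox ones, again with no overlap. Its log2 change was -0.37 (SE 0.12, adjusted p = 0.0335), and the call was lost without flox/WT mouse 4, flox/flox mouse 1 or flox/flox mouse 4 (edgeR adjusted p of 0.0863 to 0.111). Irf7, which amplifies interferon production, passed in no population. In immature cells its libraries did not overlap, at 30.4, 36.3, 36.7 and 61.4 CPM in flox/WT against 14.7, 29.6, 28.1 and 30.2 CPM in flox/flox mice.

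Among the sensors of foreign nucleic acid, Zbp1 and Dhx58 were lower in both later populations and Eif2ak2 in immature cells. Zbp1, which senses Z-form nucleic acid, measured 34.2, 50.9, 42.4 and 51.5 CPM in flox/WT immature libraries and 16.7, 24.3, 27.2 and 21.6 CPM in flox/flox ones. Every flox/flox library lay below every flox/WT one. The log2 change was -1.0 (SE 0.19, edgeR adjusted p = 0.000301). In mature cells Zbp1 fell from 33.2 ± 4.56 to 22.5 ± 4.59 CPM (SD, n = 4 each), a log2 change of -0.56 (SE 0.19, edgeR adjusted p = 0.0431). This call was lost without any of flox/WT mice 2, 3 and 4 and flox/flox mice 1, 2 and 4 (edgeR adjusted p of 0.0577 to 0.144). Dhx58, the RNA helicase LGP2, was 30.3 to 42.4 CPM in flox/WT against 20.4 to 28.6 CPM in flox/flox immature libraries, and 31.6 to 41.3 against 19.4 to 29.5 CPM in mature ones. Neither pair of groups overlapped, and the log2 changes were -0.55 (SE 0.17, edgeR adjusted p = 0.0243) and -0.60 (SE 0.17, edgeR adjusted p = 0.0166). The Dhx58 calls were lost without flox/WT mouse 3 or 4, flox/flox mouse 1 or, by population, flox/flox mouse 4 (immature) or 3 (mature), with edgeR adjusted p of 0.0501 to 0.0830 and 0.0520 to 0.0715.

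Eif2ak2, the kinase PKR that halts translation, measured 15.3, 19.7, 25.2 and 22.5 CPM in flox/WT immature libraries and 10.9, 11.0, 16.6 and 11.3 CPM in flox/flox ones. The third flox/flox library lay above the first flox/WT one, so the groups overlapped. The log2 change was -0.73 (SE 0.18, edgeR adjusted p = 0.00337). Ddx58, the RNA helicase RIG-I, and Ifih1 passed in no population. Ddx58 was 267 ± 31.0 CPM in flox/WT against 260 ± 18.7 CPM in flox/flox immature cells.

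Of the oligoadenylate synthetase genes Oasl1 alone passed the test between genotypes. Oasl1, a synthetase-like protein that represses translation of Irf7, measured 25.6, 40.6, 37.1 and 43.3 CPM in flox/WT immature libraries and 13.9, 16.3, 26.0 and 22.0 CPM in flox/flox ones. In mature cells it was 25.8, 36.2, 28.2 and 32.6 against 12.7, 16.7, 14.1 and 15.6 CPM. The mature groups stood apart with a wide gap, while 1 flox/flox immature library lay just above the lowest flox/WT one. The log2 changes were -0.91 (SE 0.23, edgeR adjusted p = 0.00459) and -1.06 (SE 0.23, edgeR adjusted p = 0.00176). Oas1a, Oas2, Oas3 and Oasl2 passed in no population. Oas2 averaged 7.61 ± 4.69 CPM in flox/WT against 2.87 ± 1.53 CPM in flox/flox immature cells (log2 change -1.41, SE 0.54, edgeR adjusted p = 0.0581), a difference near the spread between its libraries.

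Of the Ifit genes, whose proteins bind viral RNA, 1 of 3 passed in 1 population. Ifit2 fell in immature cells from 19.5 ± 4.16 to 11.8 ± 3.67 CPM (log2 change -0.73, SE 0.21, edgeR adjusted p = 0.0125), with 14.9 to 24.5 CPM in flox/WT against 6.93 to 15.7 CPM in flox/flox libraries, which overlapped. The call was lost without flox/WT mouse 4 or flox/flox mouse 1 (edgeR adjusted p of 0.0545 to 0.0723). Of the Mx genes, Mx2 fell in mature cells. It had 0.603, 3.40, 2.49 and 3.81 CPM in flox/WT against 0.110, 0.108, 1.16 and 1.47 CPM in flox/flox libraries, and the 2 lowest values stand for 1 count each, under the limit of 3 counts. The first flox/WT library lay among the flox/flox ones, so the groups overlapped. The log2 change was -1.87 (SE 0.62, edgeR adjusted p = 0.0394), and the call was lost without any of flox/WT mice 2, 3 and 4 and flox/flox mice 1 and 2 (edgeR adjusted p of 0.0733 to 0.132). Mx1 and Mx2 are annotated as transcribed pseudogenes in the RefSeq table of this build. Ifit and Mx genes have close copies, so how reads were divided among them is uncertain.

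In the Isg15 system, a ubiquitin-like tag and its enzymes, Herc6 passed in immature cells. Herc6, the ligase that attaches Isg15 in mice, measured 34.4, 31.0, 30.5 and 31.2 CPM in flox/WT against 17.5, 19.8, 29.3 and 20.2 CPM in flox/flox libraries. All flox/flox libraries lay below the flox/WT ones, the third only just. The log2 change was -0.55 (SE 0.17, edgeR adjusted p = 0.0209), lost without flox/WT mouse 1 or flox/flox mouse 1, 2 or 4 (edgeR adjusted p of 0.0525 to 0.0754). Isg15 itself stayed between 3.40 and 11.2 CPM in all 24 libraries and passed in no population. Usp18, which removes the tag, had a log2 change of -0.62 in mature cells that did not pass (edgeR adjusted p = 0.0751). Trim25, a ligase that activates RIG-I, had -0.36 in the same cells (edgeR adjusted p = 0.0525).

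Of the membrane proteins, Bst2 was lower in both later populations and Ly6e in mature cells. Bst2, or tetherin, which holds budding virus at the cell surface, measured 38.5, 48.3, 44.7 and 57.1 CPM in flox/WT immature libraries and 25.6, 33.3, 33.4 and 33.4 CPM in flox/flox ones. In mature cells it was 30.9, 43.8, 33.3 and 38.1 against 19.0, 28.9, 19.3 and 22.2 CPM, and neither pair of groups overlapped. The log2 changes were -0.59 (SE 0.18, edgeR adjusted p = 0.0190) and -0.71 (SE 0.18, edgeR adjusted p = 0.00757). The immature call was lost without flox/WT mouse 4 or flox/flox mouse 1 (edgeR adjusted p of 0.0659 to 0.0690). Ly6e fell in mature cells by 0.38 on the log2 scale (SE 0.12, edgeR adjusted p = 0.0296), from 4212, 5792, 3592 and 3467 CPM to 3098, 3587, 3462 and 2938 CPM, and the groups overlapped. The second flox/WT library was the highest: without flox/WT mouse 2 the log2 change was -0.19 (edgeR adjusted p = 0.265), and the call was also lost without flox/flox mouse 1, 3 or 4 and with only the 2 groups compared in the fit (adjusted p = 0.126). Rtp4, a chaperone that restricts flaviviruses, passed in no population.

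Among the remaining members Ifi35 and Ifi27l2a gave the most repeated difference. Ifi35, a cytoplasmic protein of the interferon response, measured 47.2, 62.2, 66.2 and 79.1 CPM in flox/WT against 36.4, 44.5, 45.3 and 38.6 CPM in flox/flox proBpreB libraries. It was 85.0 to 117 against 62.2 to 78.0 CPM in immature and 79.7 to 91.5 against 45.9 to 72.0 CPM in mature libraries. Every flox/flox library lay below every flox/WT library of its population. The log2 changes were -0.63, -0.60 and -0.62 (SE 0.14 each, edgeR adjusted p = 0.00501, 0.00267 and 0.00271), and the proBpreB call was lost without flox/WT mouse 4 (edgeR adjusted p = 0.0605).

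Ifi27l2a measured 101, 187, 338 and 425 CPM in flox/WT against 48.5, 115, 100 and 86.6 CPM in flox/flox proBpreB libraries. In immature cells it was 260, 442, 456 and 494 against 85.5, 233, 213 and 166 CPM, and in mature cells 141, 187, 296 and 252 against 65.3, 112, 92.8 and 104 CPM. The groups were apart in immature and mature cells and overlapped in proBpreB cells, where the first flox/WT library was as low as the flox/flox ones. The log2 changes were -1.58 (SE 0.40), -1.24 (SE 0.40) and -1.23 (SE 0.40), with edgeR adjusted p = 0.0202, 0.0306 and 0.0414. Each call was lost without several single mice: flox/WT mouse 3 or 4 or flox/flox mouse 3 or 4 in proBpreB cells, these or flox/WT mouse 2 or flox/flox mouse 1 in immature cells, and any mouse but flox/WT mouse 1 in mature cells (edgeR adjusted p of 0.0553 to 0.139 over these fits). Ifi27l2a overlaps the related gene Ifi27 in the annotation, so the source of its reads is uncertain.

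Parp14 and Xaf1 were lower in immature cells. Parp14, an ADP-ribosyltransferase, averaged 88.1 ± 20.2 CPM in flox/WT against 55.6 ± 16.1 CPM in flox/flox cells (log2 change -0.66, SE 0.22, edgeR adjusted p = 0.0294). Xaf1, which promotes cell death, averaged 29.4 ± 6.09 and 20.5 ± 2.83 CPM (log2 change -0.52, SE 0.19, edgeR adjusted p = 0.0483). Both calls were fragile. That of Xaf1 was lost without any of flox/WT mice 2, 3 and 4 and flox/flox mice 1, 3 and 4 (edgeR adjusted p of 0.0596 to 0.151), and that of Parp14 without any of flox/WT mice 3 and 4 and flox/flox mice 1, 2 and 4 (edgeR adjusted p of 0.0577 to 0.110).

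Samd9l and Ifi44 rose in flox/flox cells. Samd9l, a restriction factor for poxviruses and a brake on cell growth, measured 372, 397, 331 and 351 CPM in flox/WT immature libraries and 565, 451, 680 and 510 CPM in flox/flox ones. In mature cells it was 199, 175, 201 and 248 against 383, 235, 400 and 381 CPM. The immature groups did not overlap, and in mature cells the second flox/flox library fell among the flox/WT ones. The log2 changes were 0.60 (SE 0.14, edgeR adjusted p = 0.00244) and 0.77 (SE 0.14, edgeR adjusted p = 0.000292), and both calls held under every alternative tried. Ifi44, a GTP-binding-like protein, was 0.379, 1.52, 0.673 and 2.50 CPM in flox/WT against 3.06, 10.6, 5.13 and 4.89 CPM in flox/flox immature libraries. In mature cells it was 0.362, 1.13, 1.24 and 1.33 against 1.98, 3.87, 5.28 and 3.18 CPM. Every flox/flox library was higher in both, though the flox/WT values rest on 3 to 27 counts. The log2 changes were 2.19 (SE 0.45, edgeR adjusted p = 0.00067) and 1.79 (SE 0.48, edgeR adjusted p = 0.00977), and the mature call was lost without flox/flox mouse 3 (edgeR adjusted p = 0.0549).

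**Figure D2:**
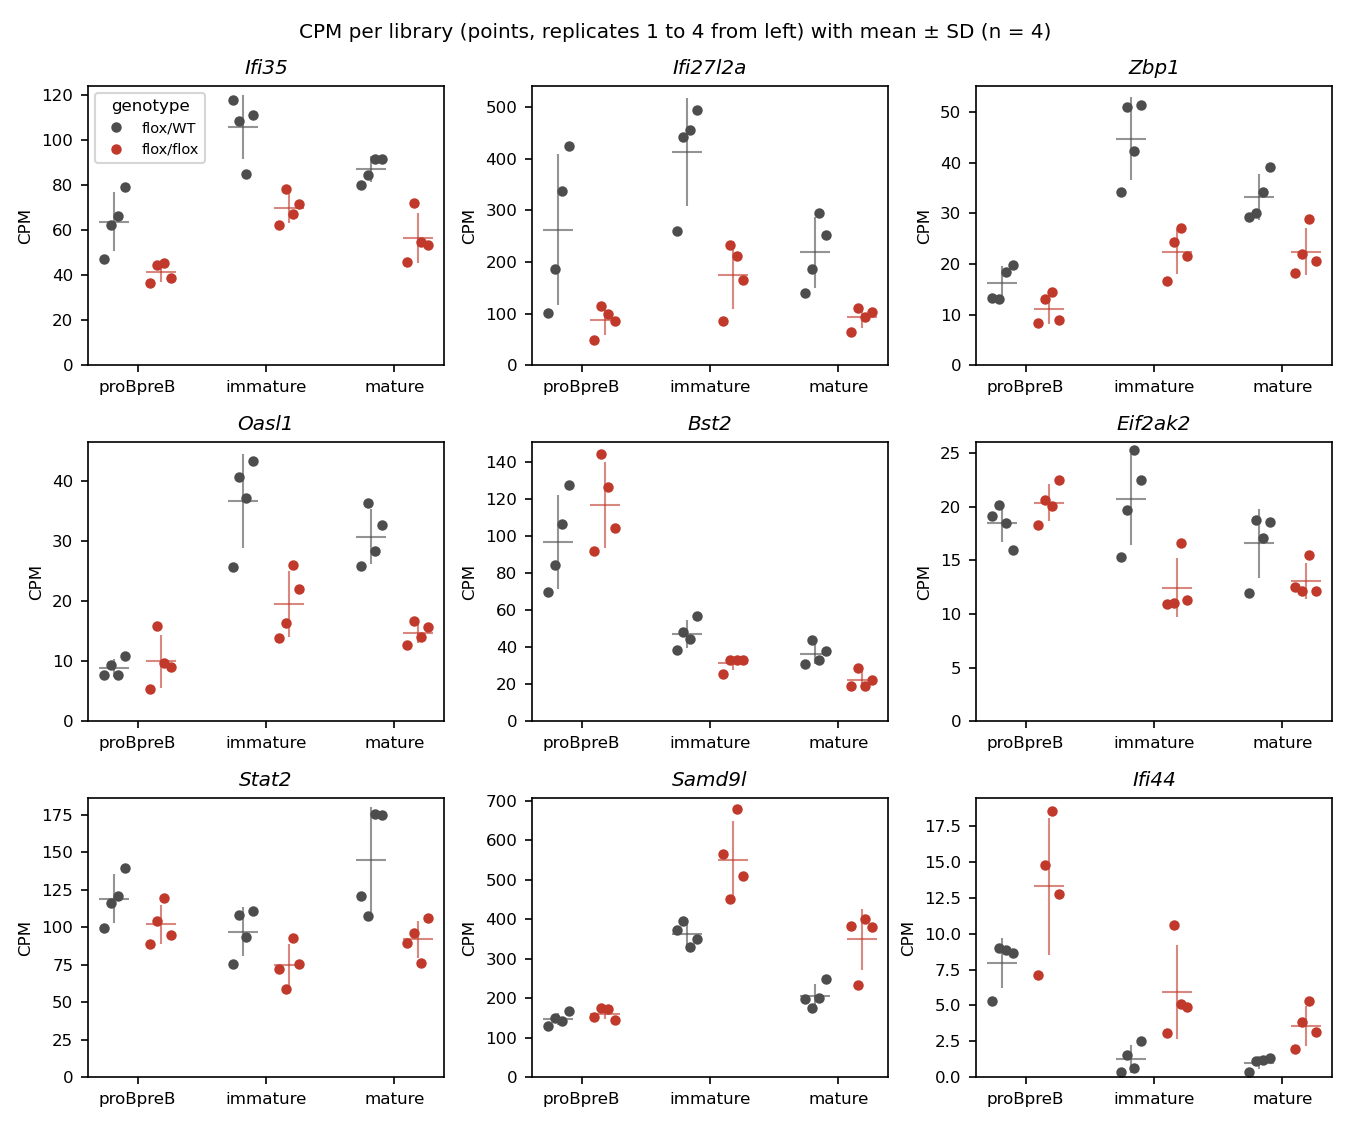
CPM (y axis, from 0) of 9 members in each of the 24 libraries by population (x axis), flox/WT in grey and flox/flox in red, with a bar for the mean ± SD of 4 mice. Ifi35 is lower in every flox/flox library of each population, Zbp1 separates in immature and mature cells and Oasl1 in mature cells, and Samd9l and Ifi44 are the 2 members that rise.

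Markers of other cells also moved with genotype in these libraries, where 10.2% of all genes were called higher in immature and 9.69% in mature cells. In immature cells 7 of 11 erythroid markers were higher in flox/flox mice, with summed levels of 2445 to 7998 CPM in flox/WT against 10182 to 18979 CPM in flox/flox libraries. In mature cells 2 of 11 were higher, at 3791 to 10679 and 7753 to 21088 CPM. Of the neutrophil and monocyte markers 3 of 13 were higher in immature cells, at 8178 to 9658 and 11897 to 15931 CPM, and 0 of 13 in mature cells. Of 10 natural killer cell markers 2 were higher in immature and 3 in mature cells. Of 10 mature B markers 7 were lower and 1 higher in proBpreB, 6 lower in immature and 4 in mature flox/flox cells. Of all genes 2.75%, 10.5% and 6.62% were called lower. The sums were 10549 to 12918 against 8695 to 9220 CPM in immature and 23162 to 25076 against 16260 to 19166 CPM in mature cells. Of 6 B lineage markers 3, 1 and 2 were lower in the 3 populations. Their sums were 4244 to 4906 against 2975 to 3107 CPM in proBpreB and 7360 to 8507 against 5811 to 6320 CPM in mature cells. In immature cells they overlapped, at 6702 to 7940 and 6897 to 8422 CPM. Of 10 pro-B and pre-B markers 0 passed in proBpreB cells. In immature flox/flox cells 3 were higher and 1 lower, and in mature ones 3 were higher. Their sums were 123 to 187 against 183 to 231 CPM in immature and 58.7 to 81.8 against 94.8 to 116 CPM in mature cells. No marker of these lists was at 0 in a group. Of 5 plasma cell markers tested 1, 3 and 1 were lower in the 3 populations, and 1 was higher in immature cells. The part of these markers in the differences of the members was not tested.

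Whether the genotype effect itself differed between populations was tested as an interaction. Between immature and proBpreB cells 4 of 32 members had a lower effect in immature cells and 0 a higher one, where 10.9% of all genes were called, 6.14% lower and 4.72% higher. These were Oasl1 (difference of log2 changes -1.07, SE 0.33, edgeR adjusted p = 0.0344), Eif2ak2 (-0.88, SE 0.25, adjusted p = 0.0205), Bst2 (-0.85, SE 0.25, adjusted p = 0.0235) and Herc6 (-0.81, SE 0.24, adjusted p = 0.0245). All 4 had a genotype change above 0, short of the threshold, in proBpreB cells. Oasl1 averaged 8.89 ± 1.5 CPM in flox/WT against 9.97 ± 4.36 CPM in flox/flox proBpreB cells, and Bst2 97.0 ± 25.3 and 117 ± 23.3 CPM. Between mature and proBpreB cells the effects of Oasl1 (-1.22, SE 0.33, edgeR adjusted p = 0.0380) and Bst2 (-0.97, SE 0.25, edgeR adjusted p = 0.0251) differed, 2 of 32 beside 3.06% of all genes, 0.786% lower and 2.27% higher. Between mature and immature cells 0 of 32 passed with edgeR and with DESeq2, beside 7.74% of all genes (2.23% lower and 5.51% higher), and 1 had an unadjusted p under 0.05 with each tool. With the mouse as a block, Irf7 (-1.0, SE 0.21, edgeR adjusted p = 0.00299) and Ifi44 (1.56, SE 0.43, edgeR adjusted p = 0.0190) also passed between immature and proBpreB cells, and Usp18 (-0.83, SE 0.23, edgeR adjusted p = 0.0431) between mature and proBpreB cells.

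In the main fit, which has no block, these differences rested on few mice. The fit with the mouse as a block lost 0 of these calls, and leaving out mice was not run with it. Between immature and proBpreB cells the count was 2 without flox/WT mouse 2 or flox/WT mouse 4, and 1 without flox/WT mouse 3, flox/flox mouse 2 or flox/flox mouse 4. The 1 call without flox/flox mouse 2 was a higher one and none of these 4. Between mature and proBpreB cells it was 0 without flox/WT mouse 2, flox/flox mouse 3 or flox/flox mouse 4, and 1 without flox/WT mouse 3 or flox/WT mouse 4. Without flox/flox mouse 2 it was 2, but Oasl1 was lost (edgeR adjusted p = 0.119) and the added call was a higher one. In these fits the lost calls had edgeR adjusted p of 0.0514 to 0.218. The shares of all genes called in the same fits are not given, so whether these moves were particular to the members was not tested.

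The stage comparison within each genotype asked how the genes changed along B cell maturation. From proBpreB to immature cells 14 of 32 members rose in flox/WT and 15 in flox/flox mice, beside 24.0% and 28.7% of all genes. The RNA sensor Ddx58 and the antiviral enzyme Rsad2 were among the largest changes in both. Fewer members fell, 2 and 8 of 32 beside 25.4% and 27.2% of all genes. Bst2 and Ifi44 fell in both genotypes, and Mx1 and Irf7 in flox/flox mice. From immature to mature cells 7 and 6 of 32 changed, beside 32.7% and 26.5% of all genes. There Oas3 was higher and Samd9l and Ddx58 were lower in both genotypes.

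In flox/WT mice 14 of 32 members were higher and 2 lower in immature than in proBpreB cells, 16 in all beside 49.4% of all genes tested (24.0% higher and 25.4% lower), with a median of 0.62 against -0.004 over all genes. Ddx58 was 57.7 to 88.3 CPM in proBpreB and 222 to 293 CPM in immature libraries, far apart. Its log2 change was 1.87 (SE 0.12, edgeR adjusted p = 2.18e-13). Oasl1 rose from 8.89 ± 1.5 to 36.7 ± 7.79 CPM (2.04, SE 0.24, edgeR adjusted p = 4.04e-08), Rsad2, or viperin, from 4.75 ± 2.25 to 17.3 ± 2.90 CPM (1.87, SE 0.38, edgeR adjusted p = 0.000207), and Oasl2 from 7.18 ± 4.11 to 24.7 ± 8.52 CPM (1.78, SE 0.29, edgeR adjusted p = 1.08e-05). The others that rose were Ifit3, Zbp1, Ly6e, Samd9l, Rtp4, Oas3, Dhx58, Irf9, Parp14 and Ifi35, by 0.73 to 1.70 on the log2 scale. Ifi44 fell by 2.62 (SE 0.44, edgeR adjusted p = 1.68e-05) and Bst2 by 1.04 (SE 0.17, edgeR adjusted p = 1.48e-05) on the same scale. With the mouse as a block, Ifi27l2a (0.79, SE 0.16, edgeR adjusted p = 0.000317), Xaf1, Ifit1 and Oas1a also rose and Mx1 fell (-1.13, SE 0.41, edgeR adjusted p = 0.0238).

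In flox/flox mice 15 members were higher and 8 lower in immature cells, 23 of 32 beside 55.9% of all genes (28.7% higher and 27.2% lower). The median was 0.41, against 0.022 over all genes. Ddx58 was 49.9 to 65.9 CPM in proBpreB and 245 to 287 CPM in immature libraries (2.13, SE 0.12, edgeR adjusted p = 1.15e-14). Rsad2 (1.94, SE 0.37, edgeR adjusted p = 9.47e-05), Samd9l (1.77, SE 0.15, adjusted p = 3.35e-11) and Ly6e (1.44, SE 0.12, adjusted p = 8.71e-11) also rose. Mx1 fell from 7.31, 14.3, 8.98 and 5.87 CPM to 1.47, 1.81, 2.15 and 2.01 CPM, with a wide gap between the groups (-2.29, SE 0.52, edgeR adjusted p = 0.000534). Bst2 (-1.89, SE 0.18, edgeR adjusted p = 6.95e-10), Irf7 (-1.29, SE 0.31, edgeR adjusted p = 0.00125) and Ifi44 (-1.17, SE 0.39, edgeR adjusted p = 0.0120) fell too, and so did Eif2ak2, Herc6, Ifit2 and Stat2, by 0.44 to 0.71 on the log2 scale. The Ifi44 call was lost without flox/flox mouse 3 or 4 (edgeR adjusted p of 0.0586 to 0.104). With the mouse as a block, Oas1a also rose (0.48, SE 0.18, edgeR adjusted p = 0.0293).

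Bst2 and Irf7 are known to be high in plasmacytoid dendritic cells, and 8 of 10 markers of those cells were lower in immature than in proBpreB cells in both genotypes (medians of -3.53 and -3.88 on the log2 scale in flox/WT and flox/flox mice). Siglech averaged 249 ± 38.9 CPM in flox/WT against 362.9 ± 100 CPM in flox/flox proBpreB cells, and at most 12.5 CPM in any other group. Ccr9 averaged 70.2 ± 16.9 and 104 ± 42.6 CPM there, and at most 5.72 CPM elsewhere. All 10 natural killer cell markers were lower as well (medians of -4.36 and -3.95). Erythroid markers were higher in immature cells, 6 of 11 in flox/WT and 10 of 11 in flox/flox mice, as were 8 and 9 of 13 neutrophil and monocyte markers. All 10 genes of the plasmacytoid marker list were detected in every group, and the list sum was not higher in the early sort, at 1178 to 1913 CPM in proBpreB and 2759 to 3864 CPM in immature libraries. The list holds genes that B cells also express, such as Ly6d and Tcf4. The part of all these cells in the stage changes of the members, and in the differences of the genotype effect, was not tested.

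**Figure D3:**
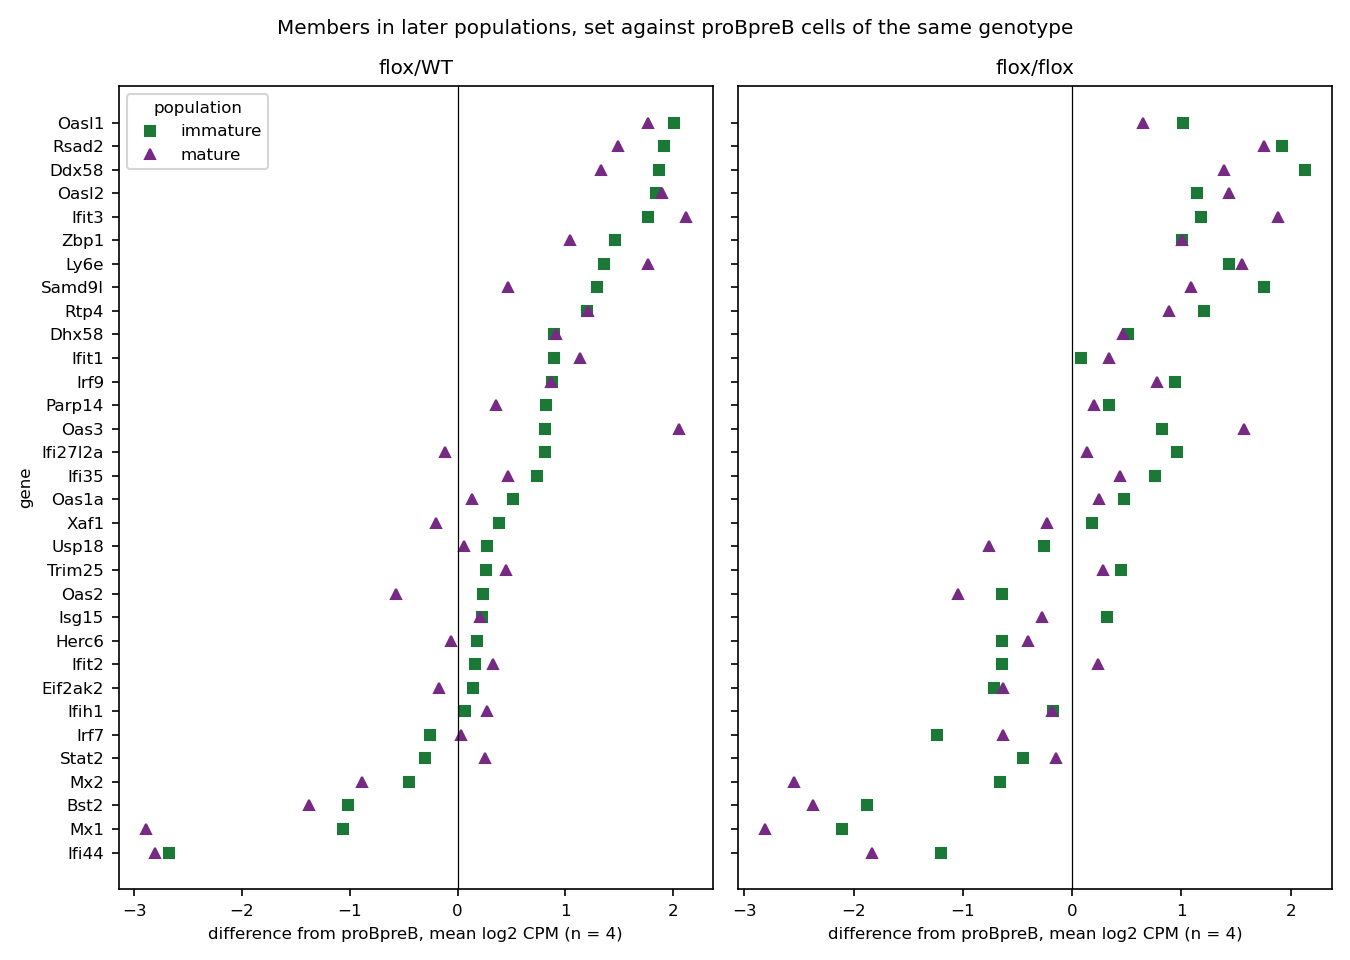
Difference in mean log2 CPM from proBpreB cells of the same genotype (x axis) for the 32 members (y axis), with squares for immature and triangles for mature cells and n = 4 mice per group. Ddx58, Rsad2 and Oasl1 lie to the right in flox/WT mice, and Bst2, Mx1 and Ifi44 lie to the left in both genotypes.

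From immature to mature cells of flox/WT mice 3 members were higher and 4 lower, 7 of 32 beside 32.7% of all genes (15.6% higher and 17.1% lower), with a median of -0.23. Oas3 rose from 4.55, 12.1, 12.4 and 12.6 CPM to 25.3, 19.1, 24.4 and 24.0 CPM, with no overlap (1.15, SE 0.23, edgeR adjusted p = 0.000282). Stat2 (0.58, SE 0.16, edgeR adjusted p = 0.00609) and Ly6e (0.44, SE 0.12, edgeR adjusted p = 0.00574) rose by less. Samd9l fell from 362.9 ± 28.2 to 206 ± 30.8 CPM (-0.82, SE 0.14, edgeR adjusted p = 4.48e-05), and Mx1 (-1.42, SE 0.55, adjusted p = 0.0499), Xaf1 (-0.60, SE 0.19, adjusted p = 0.0147) and Ddx58 (-0.55, SE 0.12, adjusted p = 0.000437) fell too. With the mouse as a block the count was 11, with Ifi27l2a (-0.93, edgeR adjusted p = 9.49e-05), Zbp1, Oas2 and Bst2 added. The count was 4 without flox/WT mouse 2 and 4 without flox/WT mouse 3. The shares of all genes called in these alternative fits are not given. Stat2 was lost without flox/WT mouse 3 (edgeR adjusted p = 0.0752), Ly6e without flox/WT mouse 2 (0.0785), Xaf1 without flox/WT mouse 2, 3 or 4 (0.0521 to 0.0728) and Mx1 without any mouse but flox/WT mouse 4 (0.0506 to 0.128).

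In flox/flox mice the same step gave 2 higher and 4 lower members, 6 of 32 beside 26.5% of all genes (12.9% higher and 13.6% lower), with a median of -0.16. Ifit2 rose from 6.93, 12.8, 15.7 and 11.5 CPM to 21.1, 16.6, 23.5 and 23.8 CPM, with no overlap (0.85, SE 0.21, edgeR adjusted p = 0.00276), and Oas3 rose too (0.77, SE 0.23, edgeR adjusted p = 0.0136). Ddx58 (-0.74, SE 0.12, edgeR adjusted p = 1.34e-05), Samd9l (-0.66, SE 0.14, adjusted p = 0.000766), Mx2 (-1.78, SE 0.63, adjusted p = 0.0366) and Bst2 (-0.49, SE 0.18, adjusted p = 0.0486) fell. With the mouse as a block the count was 12, with Xaf1, Ifi27l2a, Ifit3, Isg15, Usp18 and Irf7 added, of which Ifi27l2a had the smallest adjusted p (-0.83, edgeR adjusted p = 0.000512). Oas3 was lost without flox/flox mouse 2, 3 or 4 (edgeR adjusted p of 0.0553 to 0.0810), Mx2 without flox/WT mouse 2 or flox/flox mouse 1, 2 or 3 (0.0532 to 0.155), and Bst2 without flox/WT mouse 2 or 3 or flox/flox mouse 1, 3 or 4 (0.0598 to 0.218).

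The median spread between mice was wider over these genes than over all genes tested, which were not matched for level. The SD of log2 CPM over the 4 mice of a group, averaged over the 6 groups, had a median of 0.33 over the members and of 0.23 over all 12850 genes. It was widest for Oas2 (0.81), Mx2 (0.78), Mx1 (0.75), Ifi44 (0.64) and Ifit1 (0.61), and narrowest for Ly6e (0.14) and Ddx58 (0.15). Oas2, Mx2 and Mx1 lay above 96.2% of all genes or more, and Ly6e and Ddx58 above 14.3% and 14.9%. Oas2, Mx1, Mx2 and Ifi44 were also among the members with the fewest reads, for which counting error adds to the spread. Among well-counted members the spread was still wide for Ifi27l2a (0.56) and Irf7 (0.46).

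In 5 of the 8 mice the mean deviation had the same sign in all 3 populations and lay at or beyond 0.10 in each. In flox/WT mouse 4, 29 of 32 members lay above the group mean in proBpreB cells, 28 lay above it in immature cells and 29 in mature ones, and the mean deviation was 0.41, 0.28 and 0.30 on the log2 scale. Of the 32, 24 were above in all 3 populations, where 17.9% of all genes were. In flox/flox mouse 1 the reverse held: 1, 5 and 4 members lay above the mean, the mean deviation was -0.48, -0.37 and -0.28, and 24 were below in all 3 populations beside 15.5% of all genes. The members of flox/WT mouse 1 were low as well, with mean deviations of -0.31, -0.42 and -0.24 and 19 below in all 3 beside 14.7% of all genes. Flox/flox mice 2 and 3 were high, with 17 members each above in all 3 populations, beside 18.1% and 16.1% of all genes. The other 3 mice had mean deviations between -0.14 and 0.08 with mixed signs, and at most 6 members above and 7 below in all 3 populations. Values of 1 gene show the size: Ifi27l2a in proBpreB cells ranged from 101 CPM in flox/WT mouse 1 to 425 CPM in flox/WT mouse 4, a wider gap than between the genotype means of 263 ± 146 and 87.7 ± 28.6 CPM.

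**Figure D4:**
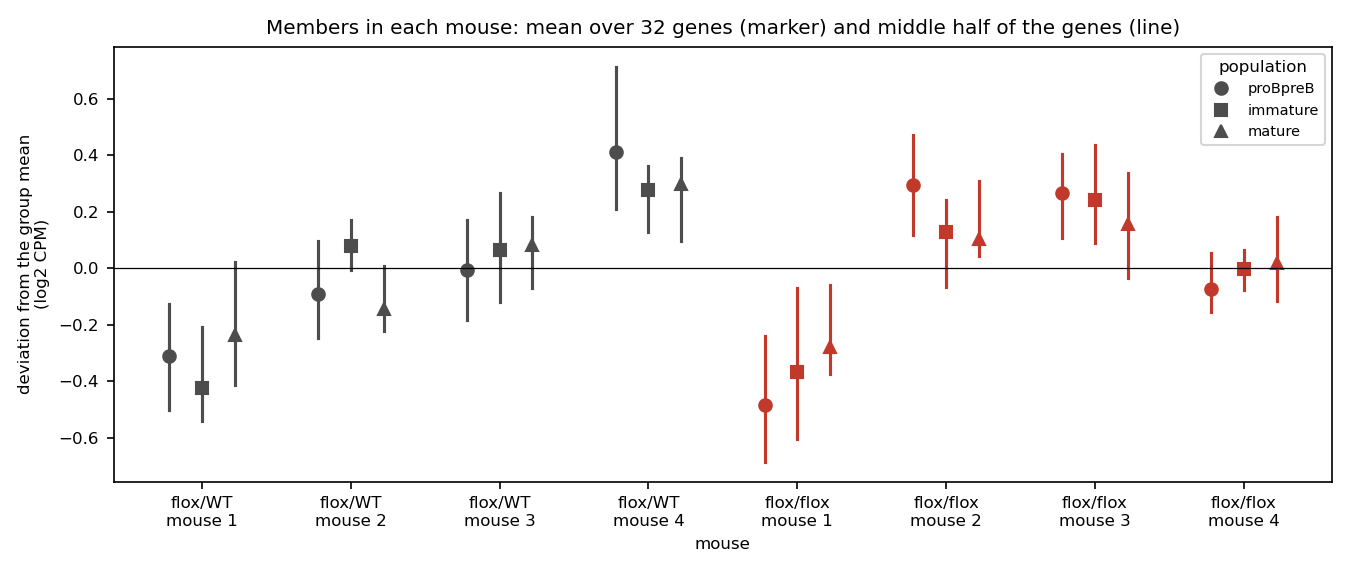
Mean deviation of the 32 members from their group mean (y axis, log2 CPM) in each mouse (x axis), with a marker for each population and a line from the lower to the upper quartile of the genes, flox/WT in grey and flox/flox in red. The markers of a mouse lie together: all 3 are below 0 in mouse 1 of each genotype, at -0.24 to -0.48, and above 0 in flox/WT mouse 4 and flox/flox mice 2 and 3.

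Flox/flox mouse 1 and flox/WT mouse 4 also stood apart in 52 other interferon-stimulated genes. The mean deviations were -0.26, -0.19 and -0.12 in flox/flox mouse 1 and 0.21, 0.14 and 0.10 in flox/WT mouse 4. Values of the other mice for these genes are not given here. Other measures moved with the mice too. The 2 low mice, mouse 1 of each genotype, had the Y-linked gene Ddx3y at 65.2 to 92.9 CPM and Xist at no more than 0.884 CPM, while the 18 libraries of the other 6 mice had 103 to 308 CPM of Xist and at most 0.421 CPM of Ddx3y. Markers of plasmacytoid dendritic cells deviated by -0.43, -0.55 and -0.48 in flox/flox mouse 1 and by 0.38, 0.82 and 0.34 in flox/WT mouse 4, and T cell markers by -0.49, -0.32 and -0.58 and by 0.16, 0.59 and 0.41. The B lineage markers stayed within -0.14 and 0.14 in these 3 mice. The part of these measures in the spread was not tested. Since 1 Ddx3y-expressing mouse was in each genotype, the genotypes were balanced for Ddx3y. This balance does not cover the cell markers. In proBpreB cells 9 of 10 plasmacytoid markers had a genotype change above 0 (median 0.41), and 1 was called lower. Of 9 T cell markers 8 were above 0 there (median 0.24), and 1 was called higher. With a term for the 2 Ddx3y-expressing mice the called members numbered 3, 15 and 14 in proBpreB, immature and mature cells, and without the 2 mice 2, 12 and 10. The shares of all genes called in these 2 fits are not given. Whether the changes in count were particular to the members was not tested.

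Around the members, the pathway was measured by lists of its other genes. The ligands were nearly silent: Ifnb1 had 0 counts in all 24 libraries, and of 9 ligand genes only Ifng passed the filter, at 1.71 ± 0.531 CPM or less in every group. Among the receptors and kinases that passed, Il10rb was lower (-0.32, SE 0.09, edgeR adjusted p = 0.0151) and Jak2 (0.45, SE 0.14, edgeR adjusted p = 0.0219) and Ifngr1 (0.29, SE 0.09, edgeR adjusted p = 0.0264) were higher in flox/flox mature cells. Of 5 other interferon regulatory factors 1 passed, Irf3 in mature cells (-0.33, SE 0.11, edgeR adjusted p = 0.0411).

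Of 13 nucleic acid sensors and adaptors 1 was lower in proBpreB cells, 3 were in immature cells and 3 in mature ones, beside 2.75%, 10.5% and 6.62% of all genes, and 0 were higher. Tlr7, the receptor for single-stranded RNA, averaged 39.3 ± 13.8 CPM in flox/WT against 15.4 ± 8.79 CPM in flox/flox immature cells (-1.35, SE 0.37, edgeR adjusted p = 0.0118) and also fell in mature cells (-1.12, SE 0.37, edgeR adjusted p = 0.0396). Trex1, a DNase that clears cytosolic DNA, fell in both (-0.51, SE 0.12, edgeR adjusted p = 0.00238 and -0.40, SE 0.12, edgeR adjusted p = 0.0246). Samhd1, which lowers the nucleotide pool, fell in proBpreB cells (-0.54, SE 0.13, edgeR adjusted p = 0.00641) and mature cells (-0.46, SE 0.12, edgeR adjusted p = 0.00976). Of 6 inhibitors of the pathway Socs1, a feedback inhibitor of Jak kinases, fell in proBpreB cells (-1.59, SE 0.24, edgeR adjusted p = 2.62e-05), and Ptpn2 rose in immature (0.29, SE 0.10, edgeR adjusted p = 0.0391) and mature cells (0.42, SE 0.10, edgeR adjusted p = 0.00411), while Ptpn6 fell in mature cells (-0.36, SE 0.10, edgeR adjusted p = 0.0129).

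Among 52 other interferon-stimulated genes, which are not members, the same 3 comparisons gave 2 higher and 5 lower in proBpreB cells, 1 and 19 in immature cells and 2 and 10 in mature cells, where 2.75%, 10.5% and 6.62% of all genes were lower, with medians of -0.055, -0.31 and -0.18 on the log2 scale. Gbp3, a guanylate-binding protein of the cell's defence against pathogens, averaged 92.9 ± 19.7 CPM in flox/WT immature cells and 20.9 ± 3.64 CPM in flox/flox ones (-2.15, SE 0.15, edgeR adjusted p = 2.76e-12). It fell in proBpreB cells (-0.88, SE 0.15, edgeR adjusted p = 0.000124) and mature cells (-1.38, SE 0.14, edgeR adjusted p = 2.1e-08) too. Phf11d fell in immature cells from 13.2 ± 2.61 to 3.46 ± 1.56 CPM (-1.93, SE 0.35, edgeR adjusted p = 0.00016). Slfn2, a Schlafen protein needed for lymphocyte quiescence, was 228 ± 81.2 CPM in flox/WT proBpreB cells beside 79.0 ± 18.5 CPM in flox/flox ones (-1.53, SE 0.18, edgeR adjusted p = 3.27e-07). Parp9, the partner of the ubiquitin ligase Dtx3l, rose in all 3 populations, by 0.61, 0.60 and 0.60 on the log2 scale (SE 0.10 each, edgeR adjusted p = 0.000161, 6.81e-05 and 0.000103), and it was singled out after its values were seen.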

How the data were processed

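RNA came from the RNeasy Plus Micro kit and cDNA from the SMARTer Universal Low Input RNA kit, per the labels' protocols. The submitters' processing notes name the build mm10 and the tools featureCounts, HISAT2, Trim Galore, FastQC, CASAVA and DESeq2. Versions, settings, annotation and the use of strand: not given in the sources used here. Where genes overlap, the gene behind a read is therefore uncertain. The deposited values used were whole-number counts per gene symbol, unchanged, and libraries were matched by the number that opens each sample title. A second deposited table, of normalised values, was not used.

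The quasi-likelihood test of edgeR 4.0.16 (R 4.3.3) was run robustly after TMM scaling and filterByExpr over the 6 groups, with all 24 libraries in 1 fit, 18 residual degrees of freedom, 12850 genes, and Benjamini-Hochberg adjustment within each of 10 comparisons at 0.05. The fit was checked on simulated data. Values in the text are TMM-scaled CPM; log2 CPM for spreads used a prior count of 2. Counting limits the precision: 3 counts stood for 0.231 to 0.419 CPM, and the labels name no molecular identifiers, so this limit covers counting error only. Alternatives were RLE size factors, other filters, only the groups compared, DESeq2 1.42.0, a replicate block and leaving out each mouse; a term for, and removal of, the 2 Ddx3y-expressing mice were added after seeing the data. Members, lists and tests were chosen with earlier results of these data known. All members past the threshold in a genotype comparison or a difference were named, the 4 largest in each direction in a stage comparison, and up to 3 genes of each other list.

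The labels give the mouse of each library, so stage comparisons and differences of genotype effects are paired by mouse. The main test has no block and treats the 24 libraries as independent, though they come from 8 mice. The fit with the mouse as a block is an alternative. Deviations from the group means of same-mouse libraries correlated at -0.284 to 0.372 (median 0.155, 16 of 24 pairs over 0.1, 5000 genes). Libraries of different mice of a genotype, from 2 populations, gave -0.451 to 0.415 (median -0.062, 19 of 72 pairs over 0.1). Libraries of 1 population with the same number in the 2 genotypes gave -0.302 to 0.544 (median -0.046, 5 of 12 pairs over 0.1). Positions came from RefSeq GRCm38.p6 and exon lengths from a GENCODE annotation of the same build. The result of 1 pathway gene is not reported here.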

Additional observations from a re-analysis of the deposited data

Results flagged for a closer look

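In 9 of 204 groups of 4 libraries 1 library stood apart from the other 3, by a gap past Dixon's critical value for groups of 4, and chance alone would set apart about 1 group in 20. In 6 of the 9 it was the low library of mouse 1. Isg15 was 5.81 CPM in immature flox/WT replicate 1 and 7.57 to 7.96 CPM in the others. Irf7 was 14.7 CPM in immature flox/flox replicate 1 and 28.1 to 30.2 CPM in the others. Oas3 was 4.55 CPM in immature flox/WT replicate 1 beside 12.1 to 12.6 CPM, and Bst2 25.6 CPM in immature flox/flox replicate 1 beside 33.3 to 33.4 CPM. Ifi44 was 0.362 CPM in mature flox/WT replicate 1 beside 1.13 to 1.33 CPM, and 5.34 CPM in proBpreB flox/WT replicate 1 beside 8.63 to 9.01 CPM. Eif2ak2 was high in replicate 3 of the flox/flox mice, at 16.6 CPM in immature cells beside 10.9 to 11.3 CPM and at 15.5 CPM in mature cells beside 12.1 to 12.5 CPM. Samd9l was 235 CPM in mature flox/flox replicate 2 and 381 to 400 CPM in the others.

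The genotype effect differed between populations, by an interaction term, in 6 results. Between immature and proBpreB cells the differences of log2 changes were -0.88 for Eif2ak2, -1.07 for Oasl1, -0.81 for Herc6 and -0.85 for Bst2. Between mature and proBpreB cells they were -1.22 for Oasl1 and -0.97 for Bst2. In each of the 6 the change in proBpreB cells was above 0 and did not pass, and the change in the later population was below 0.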

How the results depend on the processing

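Of 60 called changes of a named member, 30 stayed past the threshold under every alternative that tested them, and 0 changed direction. With only the compared groups in the fit 1 member was called in proBpreB cells. When each mouse was left out in turn, called members ranged from 1 to 2 in proBpreB, 6 to 14 in immature and 6 to 13 in mature cells between genotypes, and from 4 to 7 between mature and immature cells of either genotype. The same fits gave 1 to 3 members for the difference between immature and proBpreB cells and 0 to 2 for that between mature and proBpreB cells. Between immature and proBpreB cells they gave 16 to 18 in flox/WT and 20 to 24 in flox/flox mice. Counts under alternatives, here and in the results, stand without the share of all genes called in the same fits. Whether their moves were particular to the members was not tested. The mouse as a block (replicate block) gave 11 members between mature and immature cells in flox/WT and 12 in flox/flox mice; beside the calls it added, which are given with the results, it changed no other call. Between genotypes the block joins different mice by replicate number, and the mice numbered 1 are the Ddx3y-expressing ones. It gave 3, 15 and 14 members, the same counts as the term for those mice, so the 2 alternatives are not separate checks. With a term for the Ddx3y-expressing mice, flox/flox mature against immature cells gave 11. Vhl in proBpreB cells had log2 changes of -1.55 to -1.25 with a mouse left out, and the exact permutation p was 0.0571 in the 4 fits without a flox/WT mouse and 0.0286 in the others, the smallest that 3 against 4 libraries allow. The spread between mice was 0.27 to 0.37 over these fits. Mx1, Mx2 and Ifi44 had too few reads in some groups for a precise change. Beside leaving out mice, some calls near the threshold were lost. With only the compared groups in the fit these were Ifi27l2a in proBpreB cells (edgeR adjusted p = 0.0562), Ly6e (0.126) and Mx2 (0.109) between genotypes in mature cells, Mx1 from immature to mature flox/WT cells (0.137) and Oasl1 in the difference between immature and proBpreB cells (0.0570). With no filter on low counts Xaf1 in immature cells (edgeR adjusted p = 0.0501) and Ifi27l2a (0.0654), Irf9 (0.0534) and Zbp1 (0.0521) in mature cells were lost, and from immature to mature cells Mx1 in flox/WT (0.0641) and Bst2 in flox/flox mice (0.0605). A minimum of 10 CPM in 4 libraries ended Xaf1 in immature cells (edgeR adjusted p = 0.0559), Zbp1 in mature cells (0.0547) and the same Bst2 change (0.0559), which RLE size factors ended too (0.0521). Without the 2 Ddx3y-expressing mice Parp14 (edgeR adjusted p = 0.0777) and Herc6 (0.121) in immature cells and Irf9 (0.1002), Ly6e (0.107) and Zbp1 (0.0676) in mature cells were lost, as were Mx1 (0.0931) and Mx2 (0.0574) from immature to mature cells of flox/WT and flox/flox mice and the Herc6 difference (0.0682).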
